A study of Arabidopsis with 8 samples.

Results

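SEX4 (AT3G52180), PWD (AT5G26570) and AT2G35840 are genes of leaf carbohydrate metabolism, and the 3 of them were measured by 3 of the 22746 probe sets of the Affymetrix ATH1 array, 1 probe set per gene. Probe sets were matched to loci through the platform annotation (PWD and AT2G35840) or, where that lists no gene, through the study's own annotation of its differentially expressed genes (SEX4). SEX4 therefore carries a name here because it passed the study's threshold in at least 1 comparison of these arrays, and a test in which it passes is no independent evidence. The annotation gives the symbol PWD to a second locus, AT4G24450, which is called GWD2 here and was not taken for PWD.

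Starch made in chloroplasts by day is broken down at night to feed the leaf. PWD, the phosphoglucan, water dikinase, adds phosphate to glucans at the granule surface that another dikinase has already phosphorylated, and the phosphatase SEX4 (starch excess 4) takes phosphate off again so that amylases can go on. The sugars that leave the chloroplast enter sucrose synthesis in the cytosol, whose last step, the removal of phosphate from sucrose phosphate, is carried out by the enzyme family to which AT2G35840 belongs.

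Leaf RNA came from 4 groups of Col-0 plants with 2 arrays each, 8 arrays in all. WT control and WT drought were wild-type plants, and nNOS control and nNOS drought carried a gene for neuronal nitric oxide synthase, an animal enzyme that makes nitric oxide, under the 35S promoter of cauliflower mosaic virus, which drives expression in most tissues. Plants were 2 weeks old at the start, control plants were well watered, and the labels give 14 d without water for drought, whereas the study's methods give a shorter time. Each leaf sample came from at least 20 seedlings, and RNA of the lines nNOS-2 and nNOS-25 was pooled before labelling according to the design, although the extraction notes name nNOS-25 alone. Neither the labels nor the methods state that both samples of a group came from plants raised apart. The p-values therefore reflect the variation among these samples, part of which may be technical. The transgene's own RNA was not analysed here.

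Values are the authors' normalized log2 signals, in which a difference of 1 is a 2-fold change. The median signal of an array lay between 4.92 and 4.97 in nNOS transgenic plants and between 5.01 and 5.08 in the WT, without overlap. The poly-A control RNAs, added before labelling, averaged 8.98 and 9.40 on the nNOS control arrays and 6.04 to 6.88 on the other arrays, so the nNOS control arrays stood apart in these controls. The GAPDH probe sets, whose 3' minus 5' signal rises as RNA is shorter or less fully copied, differed by 1.02 to 1.45 on the 4 control arrays and by 0.64 to 0.87 on the 4 drought arrays, without overlap. Of the cell type markers looked up, 2 of 9 for leaf mesophyll, 4 of 6 for anther tapetum, 1 of 4 for root and 1 of 3 for guard cells had a named probe set. The leaf genes LHCB4.1 (a light-harvesting protein) and RCA (Rubisco activase) averaged 13.16 to 13.24 in nNOS control and 13.16 in nNOS drought. In the WT they averaged 12.97 to 12.99 without drought and 13.15 under drought. Without drought the transgenic plants had more LHCB4.1, by 0.35 (limma adjusted p = 0.022), whereas RCA differed by 0.09 (limma adjusted p = 0.578). Of 4 anther tapetum genes, 3 were lower in nNOS control than in WT control at an adjusted p of at most 0.05 (limma). Of all probe sets, 17.9% were. In nNOS drought against WT drought, 2 of the 4 were called lower, as were 7% of all probe sets. GRP19 among them was named because the study had called it on these arrays, so these counts are no independent evidence. The list mean was 2.62 to 2.79 in nNOS control and 3.01 to 3.04 in nNOS drought. In the WT it was 4.39 to 4.55 without drought and 3.31 to 3.33 under drought, so it fell with drought there. From WT control to nNOS control, AT1G66850 went from 7.19 to 3.65, GRP19 from 4.54 to 2.24 and the dim BGLU20 from 3.39 to 2.06. A9, also dim, did not fall (2.75 and 2.87). The guard cell gene FAMA was lower in nNOS transgenic plants without drought (3.86 to 4.07 against 4.53 to 4.67, limma adjusted p = 0.00275) and under drought (4.04 to 4.26 against 4.66 to 4.69, limma adjusted p = 0.0256). The root gene PYK10 was lower without drought (7.40 to 7.47 against 7.68 to 7.92, limma adjusted p = 0.0301). The part of these array medians, controls and markers in the results was not tested.

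SEX4 rose with drought in both genotypes and was lower in nNOS transgenic plants under both waterings. The GAPDH 3' minus 5' signal moved with drought, and FAMA and the array median moved with genotype, in the same arrays. The poly-A and hybridization controls set the nNOS control arrays apart. The part of all these in the values of SEX4 was not tested. The log2 signal of SEX4 was 8.18 and 8.28 on the WT control arrays and 9.04 and 8.97 on the WT drought arrays. It was 7.21 and 7.11 on the nNOS control arrays and 8.18 and 8.29 on the nNOS drought arrays. The nNOS control arrays were the lowest and the WT drought arrays the highest, and the other groups overlapped.

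**Figure D1:**
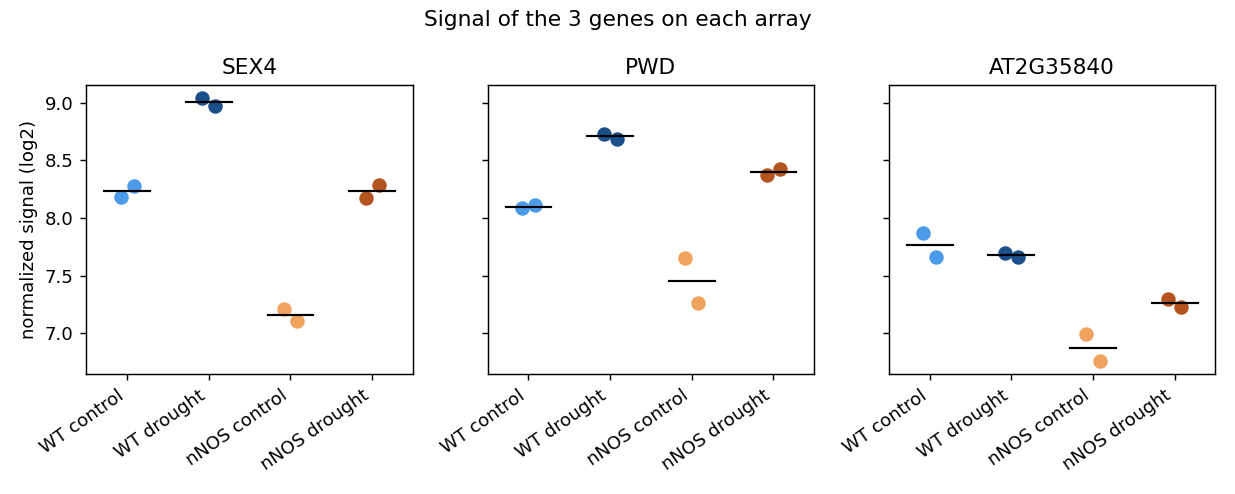
Normalized log2 signal (vertical axis) of SEX4, PWD and AT2G35840 on each array (points) in the 4 groups, with the group mean as a line. nNOS control is the lowest group for all 3 genes, and SEX4 has the same mean, 8.23, in WT control and nNOS drought.

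Without drought, SEX4 in nNOS transgenic plants stood at 47.6% of the WT signal. The log2 fold change was -1.07 ± 0.105 (SE, n = 2 per group) with an adjusted p of 9.41e-05 in limma. All 3 genes were called lower in this comparison at an adjusted p of at most 0.05, where 17.9% of all probe sets were. Only 174 of the 22746 probe sets, 0.765%, were further down than SEX4. SEX4 was named because the study had called it on these arrays, so its ranks are no independent evidence. In a bulk leaf sample, fewer cells of a type and less RNA per cell cannot be told apart. Drought raised SEX4 in nNOS transgenic plants by 1.07 ± 0.105 (adjusted p of 7.53e-05 in limma), and WT plants showed a rise of 0.77 ± 0.105 (adjusted p of 0.00176 in limma). In these comparisons 14% and 5.97% of all probe sets were called higher, and 0.629% and 0.796% had a larger log2 fold change than SEX4. Under drought, SEX4 stood at 58.5% of the WT, or -0.77 ± 0.105 on the log2 scale (adjusted p of 0.00767 in limma), where 7% of all probe sets were called lower.

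The means of SEX4 in nNOS drought and WT control differed by 0.0015 on the log2 scale, with a 95% confidence interval of -0.23 to 0.23, in a comparison added after the values were seen. Between these groups 16.7% of all probe sets were called. The drought responses of the genotypes differed by 0.30 (95% confidence interval -0.03 to 0.63, limma adjusted p = 0.307). None of the 3 genes passed this test of the difference, which 3.64% of all probe sets passed, and AT2G35840 alone had an unadjusted p under 0.05. SEX4 alone of the 3 genes also passed a 2-fold threshold, downward between the genotypes without drought and upward after drought in nNOS transgenic plants. Of all probe sets, 1.18% and 0.809% did so. SEX4 was named here because it passed the study's 2-fold threshold on these arrays, whereas PWD and AT2G35840 were named without it. This contrast is therefore no independent evidence. SEX4 passed narrowly, and after cyclic loess normalization its log2 fold changes were -0.94 and 0.93. Under drought, the genotype difference of SEX4 was -0.83 (adjusted p = 0.0554) without nNOS drought replicate 2, -0.74 (adjusted p = 0.115) without WT drought replicate 1 and -0.81 (adjusted p = 0.0605) without WT drought replicate 2, all by limma.

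PWD, which acts before SEX4 on the starch granule, had the same order of extremes with smaller differences. Its log2 signal was 8.09 and 8.11 on the WT control arrays, 8.73 and 8.69 on the WT drought arrays, 7.66 and 7.26 on the nNOS control arrays and 8.37 and 8.43 on the nNOS drought arrays. No groups overlapped, and the nNOS control arrays lay 0.396 apart, the widest gap of any group for this gene.

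Without drought, PWD in nNOS transgenic plants stood at 64.1% of the WT signal, and 6.29% of all probe sets were further down. The log2 fold change was -0.64 ± 0.130 (SE, n = 2 per group) with an adjusted p of 0.00399 in limma. The value was -0.84 without nNOS control replicate 1 and -0.44 without nNOS control replicate 2, with limma adjusted p-values of at most 0.0306 over the 8 omissions of 1 array. After drought PWD rose by 0.94 ± 0.130 in nNOS transgenic plants (adjusted p of 0.000603 in limma), and 0.972% of all probe sets had a larger log2 fold change. In the WT the rise was 0.61 ± 0.130 (adjusted p of 0.0157 in limma), and 2.01% of all probe sets lay above it.

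The rise of PWD in the WT did not pass without WT control replicate 1 (0.60, adjusted p = 0.0943), without WT control replicate 2 (0.62, adjusted p = 0.0707), without WT drought replicate 1 (0.59, adjusted p = 0.130) or without WT drought replicate 2 (0.63, adjusted p = 0.0873) in limma. Under drought, PWD in nNOS transgenic plants stood at 80.7% of the WT, and 13.7% of all probe sets were further down. This difference of -0.31 (95% confidence interval -0.60 to -0.02, limma adjusted p = 0.142) did not pass the test. It passed without nNOS control replicate 1 or replicate 2 (limma adjusted p = 0.0397 in both). The difference between the drought responses was 0.33 (95% confidence interval -0.07 to 0.74, limma adjusted p = 0.362), and 0.53 without nNOS control replicate 1 (limma adjusted p = 0.0476). In the order of PWD levels, WT control and nNOS drought were neighbours 0.30 apart (95% confidence interval 0.02 to 0.59, limma adjusted p = 0.144).

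**Figure D2:**
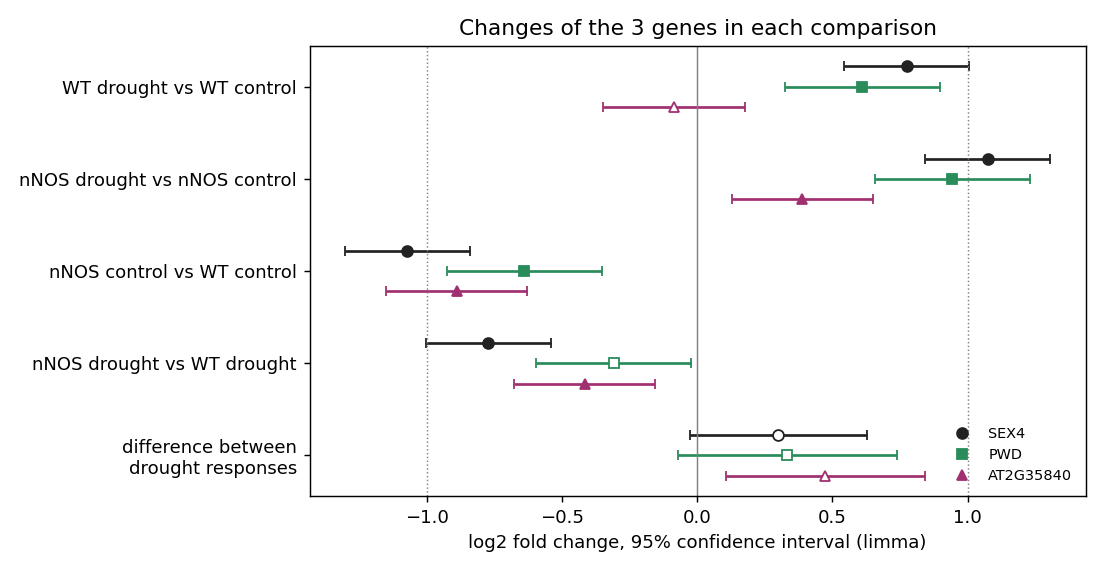
Log2 fold change (horizontal axis) of SEX4, PWD and AT2G35840 in each comparison with its 95% confidence interval from limma. Filled symbols have an adjusted p of at most 0.05, and dotted lines mark a 2-fold change. In the WT, drought intervals of SEX4 and PWD lie above 0 and that of AT2G35840 spans it.

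AT2G35840, of the sucrose phosphatase family, differed between the genotypes more than between the waterings. Its log2 signal was 7.87 and 7.66 on the WT control arrays, 7.70 and 7.66 on the WT drought arrays, 6.99 and 6.76 on the nNOS control arrays and 7.30 and 7.23 on the nNOS drought arrays. All 4 arrays of nNOS transgenic plants lay below all 4 arrays of the WT, and within the WT the watering groups overlapped.

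Without drought, AT2G35840 in nNOS transgenic plants stood at 53.9% of the WT signal (log2 fold change -0.89 ± 0.118 (SE, n = 2 per group), adjusted p of 0.000397 in limma), with 2.08% of all probe sets further down. Under drought it stood at 74.9% of the WT, and 7.88% of all probe sets were further down. The log2 fold change was -0.42 ± 0.118 (adjusted p of 0.0479 in limma). That difference was on the edge of the threshold, with limma adjusted p-values of 0.113 and 0.222 without nNOS drought replicate 1 and 2, 0.285 and 0.162 without WT drought replicate 1 and 2, and 0.0574 without either WT control replicate. Median centring of the arrays gave -0.32 (limma adjusted p = 0.0846).

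After drought, AT2G35840 rose by 0.39 ± 0.118 in nNOS transgenic plants (adjusted p of 0.035 in limma), and 13.2% of all probe sets had a larger log2 fold change. This call was lost without nNOS control replicate 2 (0.27, adjusted p = 0.158), without nNOS drought replicate 1 (0.35, adjusted p = 0.162), without nNOS drought replicate 2 (0.42, adjusted p = 0.0924) and without WT drought replicate 1 or 2 (0.39, adjusted p = 0.0628), all by limma, and after cyclic loess normalization (0.23, adjusted p = 0.164). In the WT the log2 fold change after drought was -0.09, with a 95% confidence interval of -0.35 to 0.18 (limma adjusted p = 0.669), so a rise as large as that of SEX4 or PWD lies outside the interval. The drought responses differed by 0.47 between the genotypes (95% confidence interval 0.10 to 0.84), which did not pass over all probe sets (limma adjusted p = 0.146). In the order of levels, nNOS drought lay 0.50 below WT control (limma adjusted p = 0.0154).

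**Figure D3:**
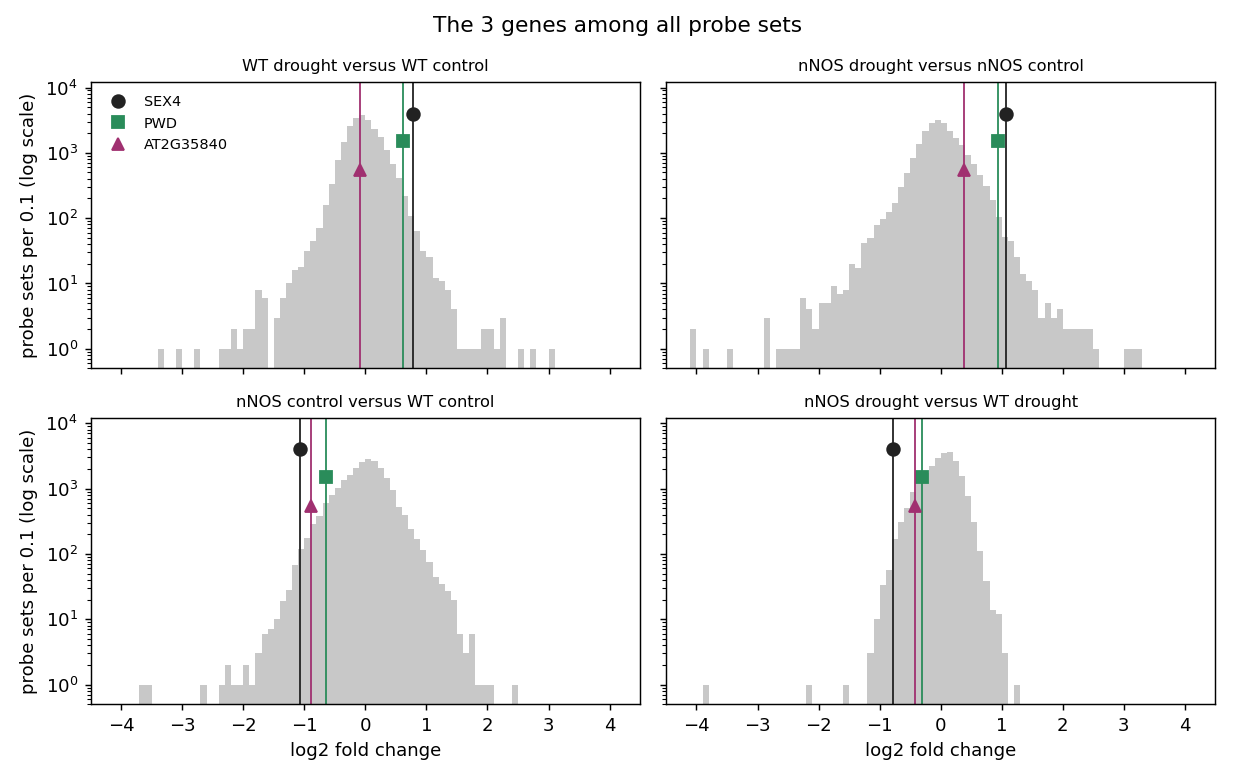
Number of probe sets per 0.1 of log2 fold change (vertical axis, log scale) in the 4 comparisons of groups, with the values of SEX4, PWD and AT2G35840 as lines and symbols. SEX4 lies in the outer 1% on its side in every panel, with 134 to 181 probe sets beyond it, whereas AT2G35840 lies in the bulk for WT drought versus WT control. SEX4 was named because the study had called it on these arrays, so its ranks are no independent evidence.

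In all, 3 of 3 genes had non-overlapping, lower arrays in nNOS control than in WT control and in nNOS drought than in WT drought, where 32.1% and 30.2% of all probe sets did so. After drought, 3 of 3 had non-overlapping, higher arrays with the transgene and 2 of 3 in WT plants, against 29.7% and 28.6% of all probe sets. SEX4 was named because the study had called it on these arrays, and the 3 genes were chosen with earlier results of these data known. These counts are therefore no independent evidence. The genotype comparison without drought and the drought comparison in nNOS transgenic plants use the same nNOS control arrays, with opposite sign, and are not independent. Across the 8 arrays, which share the 4 groups and their labelling, the log2 signals of SEX4 and PWD had a Pearson correlation of 0.96, those of SEX4 and AT2G35840 of 0.81 and those of PWD and AT2G35840 of 0.71.

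Of 24 genes of starch breakdown looked up by locus, 6 had a named probe set, SEX4 and PWD included. At an adjusted p of at most 0.05, all 6 were higher after drought with the transgene and 4 in WT plants, 4 were lower in nNOS control than in WT control, and 2 were lower in nNOS drought than in WT drought; none passed in the opposite direction. Of all probe sets, 14%, 5.97%, 17.9% and 7% were called in these directions. The median log2 fold changes of the 6 were 0.83, 0.56, -0.59 and -0.32 in that order, against -0.02, -0.04, 0.01 and 0.04 over all probe sets. SEX4 and LSF2 among them were named from genes the study had called, so these counts are not independent evidence of direction.

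LSF2 (AT3G10940) is a phosphatase related to SEX4 that also removes phosphate from starch. Its genotype difference without drought was the largest of the 14 starch and sucrose genes with a named probe set. LSF2 was named because the study had called it on these arrays, so this rank is no independent evidence. Its log2 signal was 7.86 and 7.95 on the WT control arrays, 8.25 and 8.24 on the WT drought arrays, 6.76 and 6.51 on the nNOS control arrays and 7.85 and 7.66 on the nNOS drought arrays. As for SEX4, the nNOS control arrays were the lowest by a wide gap and the WT drought arrays the highest. Between the genotypes without drought, the log2 fold change of LSF2 was -1.27 ± 0.120 (SE, n = 2 per group; adjusted p of 8.72e-05 in limma), and it rose by 1.12 after drought in nNOS transgenic plants (limma adjusted p = 0.000141). In the WT the change after drought was 0.34 (95% confidence interval 0.07 to 0.60, limma adjusted p = 0.0935). Under drought it was lower by genotype, at -0.49 (limma adjusted p = 0.0305), with adjusted p-values of 0.0633 and 0.196 without nNOS drought replicate 1 and 2, and 0.216 and 0.129 without WT drought replicate 1 and 2.

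DPE1 (AT5G64860), the plastid disproportionating enzyme that rebuilds short glucans during starch breakdown, followed PWD closely. It rose after drought in nNOS transgenic plants by 0.72 (limma adjusted p = 0.00138) and in WT plants by 0.51 (limma adjusted p = 0.0195), and was lower by genotype without drought, at -0.55 (limma adjusted p = 0.00494). AMY1 (AT4G25000), an alpha-amylase, rose by 0.60 and 0.66 after drought (limma adjusted p = 0.0159 and 0.0219) but had a log2 fold change of -0.06 between the genotypes without drought (95% confidence interval -0.39 to 0.28). The rises of DPE1 and AMY1 in the WT lost the call without any 1 of the 4 WT arrays, with values of 0.49 to 0.53 and 0.55 to 0.77 (limma adjusted p up to 0.143 and 0.191). That of AMY1 in nNOS transgenic plants lost it without nNOS control replicate 2 (0.44, adjusted p = 0.0967) or nNOS drought replicate 1 (0.44, adjusted p = 0.141) in limma. GWD2 was dim, with signals of 2.53 to 3.45, and its rise of 0.50 in nNOS transgenic plants (limma adjusted p = 0.0187) was lost without nNOS control replicate 1 (0.32, adjusted p = 0.0735) and without nNOS drought replicate 1 or 2 (0.50 in both, adjusted p = 0.0918 and 0.0823).

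Of 16 genes of starch synthesis 3 were matched, and APL3, a large subunit of ADP-glucose pyrophosphorylase, rose by 0.79 after drought in the WT (limma adjusted p = 0.0148) and was lower in nNOS drought than in WT drought, at -0.80 (limma adjusted p = 0.0181). SBE2.2, a starch branching enzyme, was lower in nNOS transgenic plants without drought, at -0.42 (limma adjusted p = 0.0197), but -0.26 after cyclic loess normalization (limma adjusted p = 0.125). The rise of APL3 lost its call without WT control replicate 1 or WT drought replicate 1 (0.67 in both, limma adjusted p = 0.114 and 0.143), and its genotype difference without any 1 of the 4 drought arrays (-0.92 to -0.67, limma adjusted p up to 0.181). That of SBE2.2 was lost without nNOS control replicate 2 (-0.40, adjusted p = 0.0648) or WT control replicate 1 (-0.33, adjusted p = 0.128) in limma. APL4 passed in no comparison. Of 12 genes of sucrose synthesis 3 were matched, and AT2G35840 was the only one of them that passed. AT3G54270, of the same sucrose phosphatase family, was dim at 2.55 to 3.09, and AT4G10120, a sucrose phosphate synthase, differed by -0.39 between the genotypes without drought, with a 95% confidence interval of -0.84 to 0.07. Of 14 genes of sucrose cleavage and export 2 were matched, and the vacuolar invertase gene AT1G62660 was higher in nNOS transgenic plants without drought, by 0.39 (limma adjusted p = 0.0311), a call lost without nNOS control replicate 1 (0.25, adjusted p = 0.128), WT control replicate 1 (0.31, adjusted p = 0.168), WT control replicate 2 (0.47, adjusted p = 0.0562) or either WT drought replicate (0.39, adjusted p = 0.0547). The sucrose exporter SWEET11 had 0.19 there (95% confidence interval -0.05 to 0.44).

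**Figure D4:**
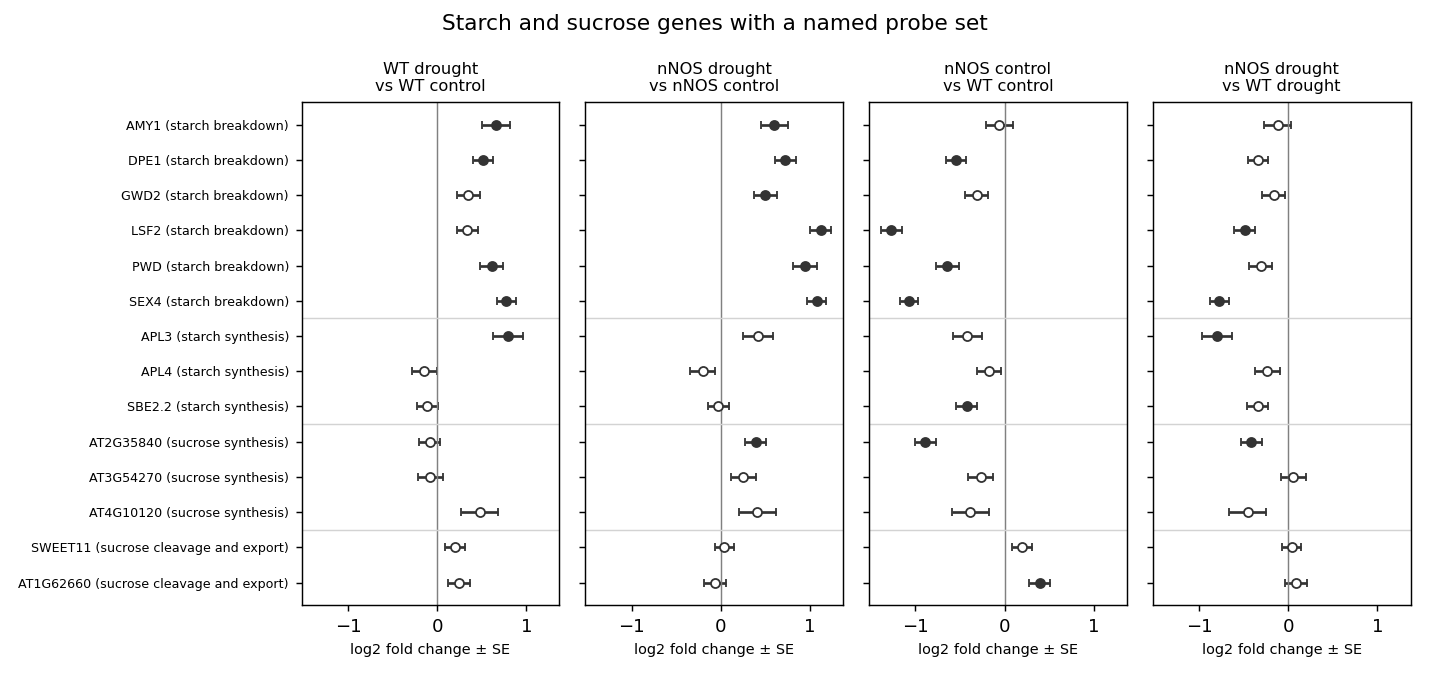
Log2 fold change with its SE (horizontal axis) of the 14 starch and sucrose genes with a named probe set, in the 4 comparisons of groups. Filled points have an adjusted p of at most 0.05. The 6 starch breakdown genes lie to the right of 0 in both drought panels, and 4 of them pass to the left in nNOS control versus WT control.

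Many starch breakdown genes follow a daily rhythm, and harvest times are not given in the sources used here. Of 12 clock genes, GI (AT1G22770, GIGANTEA) was the one matched. Its log2 signal was 7.63 and 7.43 in WT control, 7.93 and 7.97 in WT drought, 7.53 and 7.53 in nNOS control and 7.93 and 7.90 in nNOS drought. It was thus higher on all 4 drought arrays than on all 4 control arrays, by 0.42 in WT plants (limma adjusted p = 0.031) and by 0.38 with the transgene (limma adjusted p = 0.0233). Between the genotypes without drought it differed by 0.0007 (95% confidence interval -0.23 to 0.24). The call of GI in WT plants was lost without any 1 of the 4 WT arrays (0.32 to 0.52, limma adjusted p up to 0.181), and that with the transgene without nNOS control replicate 2 or either nNOS drought replicate (0.37 to 0.40, limma adjusted p up to 0.111). Both were lost after quantile (limma adjusted p = 0.0558 and 0.0719) and cyclic loess normalization (limma adjusted p = 0.069 and 0.155). The part of the time of day in the drought responses and genotype differences of the 3 genes was not tested.

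The genes with the most similar course were sought by Pearson correlation of the log2 signals over the 8 arrays, among 5309 probe sets of other named genes whose group means spanned at least 0.5. For SEX4 they were AT1G80400 (r = 0.9945), AT4G33700 (r = 0.9921) and AT4G02630 (r = 0.9911). For PWD they were UBP25, a ubiquitin-specific protease (r = 0.9954), AT5G52580 (r = 0.9954) and DPE1 (r = 0.9951), so a starch breakdown gene stood among the closest. For AT2G35840 they were AT4G05400 (r = 0.9939), AT5G53490 (r = 0.9931) and AT5G65685 (r = 0.9927). These are descriptions over 8 arrays that share the 4 groups.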

How the data were processed

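The authors hybridized labelled leaf RNA to ATH1 arrays, read them out in Affymetrix's Command Console and worked in R with affylmGUI. The deposited log2 signals are their normalized values of 22810 probe sets, and the normalization and the summarization of probes are not given in the sources used here. All 8 arrays entered 1 linear model of 4 group means, moderated by eBayes (limma 3.58.1 in R 4.3.3). Benjamini-Hochberg adjustment covered all 22810 probe sets, and counts leave out the 64 controls of the manufacturer. Passing means an adjusted p of at most 0.05. The number of arrays limits the precision.

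Of the probe sets, 13513 had 1 gene in the platform annotation, 503 several and 8794 were not listed, of which 239 were named from the study's annotation. Entrez numbers were updated to loci through RefSeq. The authors' fold changes and p-values there were not used. The lists of starch, sucrose, clock and marker genes and the 3 genes themselves were chosen with earlier results of these data known. Named were the 3 genes, their closest relatives, and per list and comparison the largest rise and fall that passed, and the probe sets most correlated with each gene. AMY1, APL4, SWEET11, AT4G10120 and RCA fall outside this rule and were added, after their values were seen, to account for matched list genes. Where a gene had several probe sets, the brightest stood for it. The procedure was tested on simulated data. Alternatives were quantile, cyclic loess and median normalization, a filter on dim probe sets, array weights, fits to 4 arrays, a robust eBayes with trend, a replicate block and the omission of each array.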

Additional observations from a re-analysis of the deposited data

Results flagged for a closer look

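LSF2 was picked out because its drought response differed between the genotypes in a direct test, by 0.78 on the log2 scale (nNOS minus WT, SE 0.170, n = 2 per group, adjusted p of 0.0341 in limma). It rose by 1.12 in nNOS transgenic plants, and the value in the WT, 0.34, did not pass. The call held in the 7 other fits that keep all arrays (limma adjusted p = 0.00257 to 0.0428) and was lost in 7 of 8 omissions of 1 array, with limma adjusted p-values from 0.0570 to 0.152; without nNOS control replicate 1 it was 0.90 (limma adjusted p = 0.0129). No such difference passed for SEX4, PWD or AT2G35840. LSF2 was named from genes the study had called on these arrays, so this result is no independent evidence.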

How the results depend on the processing

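The signs of SEX4, PWD and AT2G35840 held in every alternative except for AT2G35840 after drought in the WT, 0.0155 without WT control replicate 1. Over omissions of 1 array, SEX4 ranged from 0.73 to 0.82 (WT drought), 1.02 to 1.13 (nNOS drought), -1.12 to -1.02 (genotype, watered), -0.83 to -0.72 (genotype, drought) and 0.24 to 0.35 (difference between responses). PWD ranged in that order from 0.59 to 0.63, 0.75 to 1.14, -0.84 to -0.44, -0.34 to -0.28 and 0.13 to 0.53, and AT2G35840 from -0.19 to 0.0155, 0.27 to 0.50, -1.01 to -0.78, -0.45 to -0.38 and 0.36 to 0.59. PWD in nNOS drought versus WT drought passed with only the 4 arrays compared and with array weights (-0.31 in both). AT2G35840 no longer passed in nNOS drought versus nNOS control after quantile (0.28), median (0.35) and cyclic loess (0.23) normalization, with only 4 arrays and with array weights (0.39 in both), or in nNOS drought versus WT drought after quantile (-0.36), median (-0.32) and cyclic loess (-0.34) normalization. The causes were not tested. Median centring moved the median of all probe sets from 0.01 to 0.11 in nNOS control versus WT control and from 0.04 to 0.14 in nNOS drought versus WT drought, and the share of higher calls from 42.1% to 61.3% and from 34.4% to 69.7%.

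The counts of all probe sets called, 2475, 5654, 7027 and 2428 in the order above and 827 for the difference between responses, depended on which array was left out: they ranged from 379 to 4015, 2797 to 7288, 4276 to 8406, 3 to 4269 and 90 to 1982 over omissions. The lowest counts came without WT drought replicate 1 (379 and 3), nNOS drought replicate 1 (2797), WT control replicate 2 (4276) and WT drought replicate 2 (90). At an adjusted p of at most 0.01 they were 646, 2890, 3937, 192 and 106. With only the 4 arrays compared, 4150 (WT drought), 3634 (nNOS drought) and 4598 (genotype, drought) were called, with array weights 5175 (WT drought) and 5431 (genotype, drought), and with trend and robust 1961 for the difference between responses. Of the 14 starch and sucrose genes, 5, 7, 7, 4 and 1 passed, and 1 to 8, 4 to 9, 5 to 9, 0 to 7 and 0 to 2 over omissions. With platform names only, 2 passed between the genotypes under drought and 0 for the difference between responses. Of 255 alternatives run on the 16 calls of other list genes, chosen after seeing the data, 199 kept the call, 56 lost it and 0 reversed. The labels do not say that replicate numbers mark a shared batch. Replicate deviations correlated by -0.06 to 0.11 in the 4 comparisons of groups and by -0.12 between nNOS drought and WT control. With the replicate number as a block no call of the 3 genes changed (AT2G35840 under drought, -0.42, adjusted p = 0.0419), and the counts were 2316, 5561, 6896, 2233 and 630.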
